A study of Homo sapiens with 10 samples.

Results

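The transcriptome of HEK293T cells after exposure to bacterial extracellular vesicles (bEVs) of Lactobacillus acidophilus (L. acidophilus) was compared with that of control cells. The comparison rests on 3 of the 10 arrays of the series: the 1 array labelled as L. acidophilus bEV, and the arrays labelled control 1 and control 2. HEK293T is an established cell line derived from human embryonic kidney and expressing SV40 large T antigen. In the L. acidophilus bEV group, cells were treated for 6 h at the maximum tolerated dose (MTD) of that bEV, and triplicate RNA samples were pooled before hybridization. The treatment, time and pooling of the control group are not given beyond the word control, and the treatment field that every array shares describes another agent (Pk2). All 3 arrays share the cell line, the serum-containing medium and the column extraction of total RNA. The other 7 arrays carried the bEVs of L. rhamnosus, L. plantarum, L. salivarius, S. thermophilus, L. paracasei, L. fermentum and Lc. lactis, each at its own MTD, so that strain and dose cannot be told apart between bEVs. Because the bEV side holds 1 array, no difference was tested. The gap between the 2 controls is the only measure of spread, and it covers arrays rather than known separate cultures.

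Signals are log2 values of GeneChip Human Gene 2.0 ST probe sets, and a difference of 1 on this scale is a doubling. A gene was represented by its probe set of highest mean signal, which gave 14884 named genes, and 7442 of them lay at or above the median signal of 4.63. Differences are L. acidophilus bEV minus the mean of both controls, and genes were counted when they differed by at least 1.5-fold, which is 0.58 on the log2 scale. The edge of this count is arbitrary, since MIR595 at 0.59 was counted and SFN at 0.58 was not.

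bEVs are membrane particles shed by bacteria that carry proteins, lipids and nucleic acids to host cells. Vesicles of gram-positive bacteria carry lipoproteins and cell wall fragments, which host cells sense through Toll-like and NOD receptors. Early transcription is commonly read along different routes in cultured cells after a change of surroundings. Immediate early genes such as EGR1 and FOS are switched on by the ERK pathway and by serum within minutes to hours, while ATF4 targets such as CTH and SESN2 respond to amino acid shortage and other stress through the integrated stress response.

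The difference from the controls was small in extent. Against the control mean, 241 genes were higher (1.62% of all genes) and 289 were lower (1.94%) with L. acidophilus bEV. When each control was taken alone and both had to be passed, 112 genes were higher (0.752%) and 140 were lower (0.941%). The controls themselves differed to a similar degree, with 399 genes higher (2.68%) and 410 lower (2.75%) in control 1 than in control 2. Of the 3 arrays, L. acidophilus bEV thus stood 1.5-fold beyond both others in 252 genes or 1.69%, control 1 in 1.59% and control 2 in 1.52%. By this count the L. acidophilus bEV array was about as far from the controls as each control was from the other 2 arrays.

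**Figure D1:**
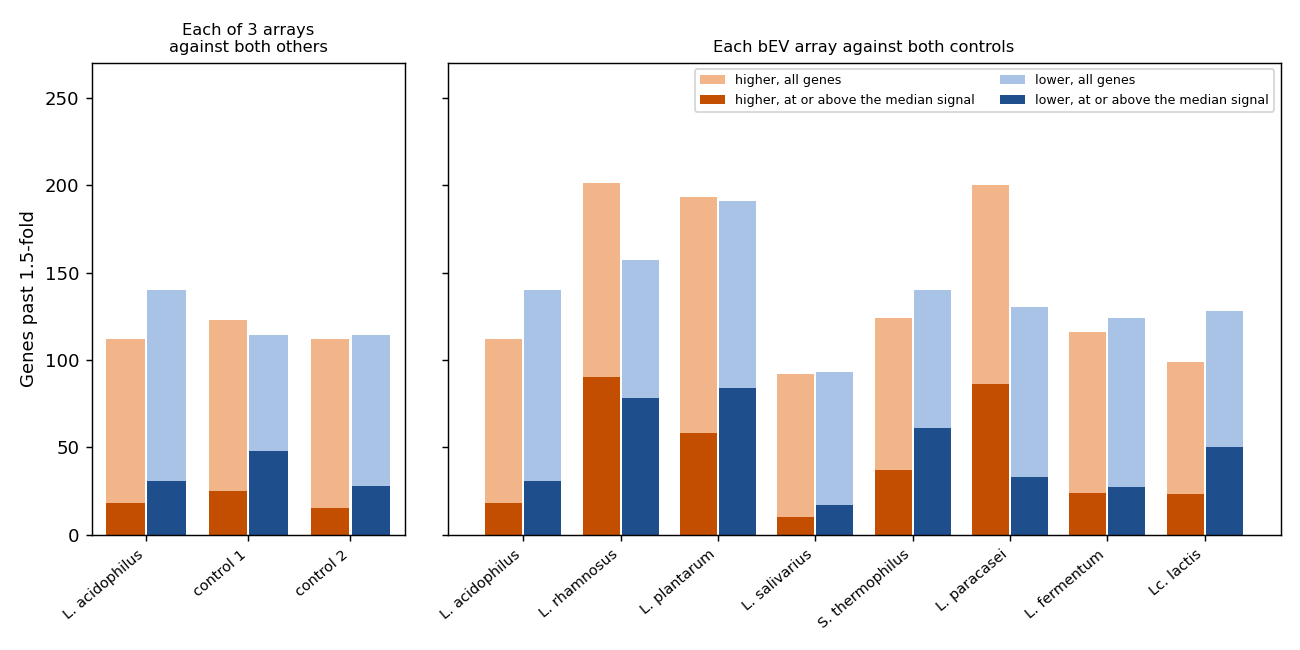
Number of genes past 1.5-fold (vertical axis). Left, each of the L. acidophilus bEV, control 1 and control 2 arrays against both others. Right, each of the 8 bEV arrays against both controls. Orange bars count genes that were higher and blue bars genes that were lower, and the dark part of a bar holds genes at or above the median signal. The 3 arrays on the left have like bars (112 and 140 for L. acidophilus bEV, 123 and 114 for control 1, 112 and 114 for control 2).

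Most of these genes were dim. Of the genes past 1.5-fold against each control, 83.9% of the higher and 77.9% of the lower lay below the median signal, and microRNA genes made up 33.0% and 27.9%, while they were 7.20% of all genes. The 809 genes on which the controls differed had the same lean, with 71.3% below the median signal and 20.6% microRNA genes. At or above the median signal, 18 genes were higher and 31 were lower than each control with L. acidophilus bEV. Under the same count, L. salivarius bEV had 10 and 17 such genes and L. rhamnosus bEV 90 and 78, with the same controls used for all bEVs.

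**Figure D2:**
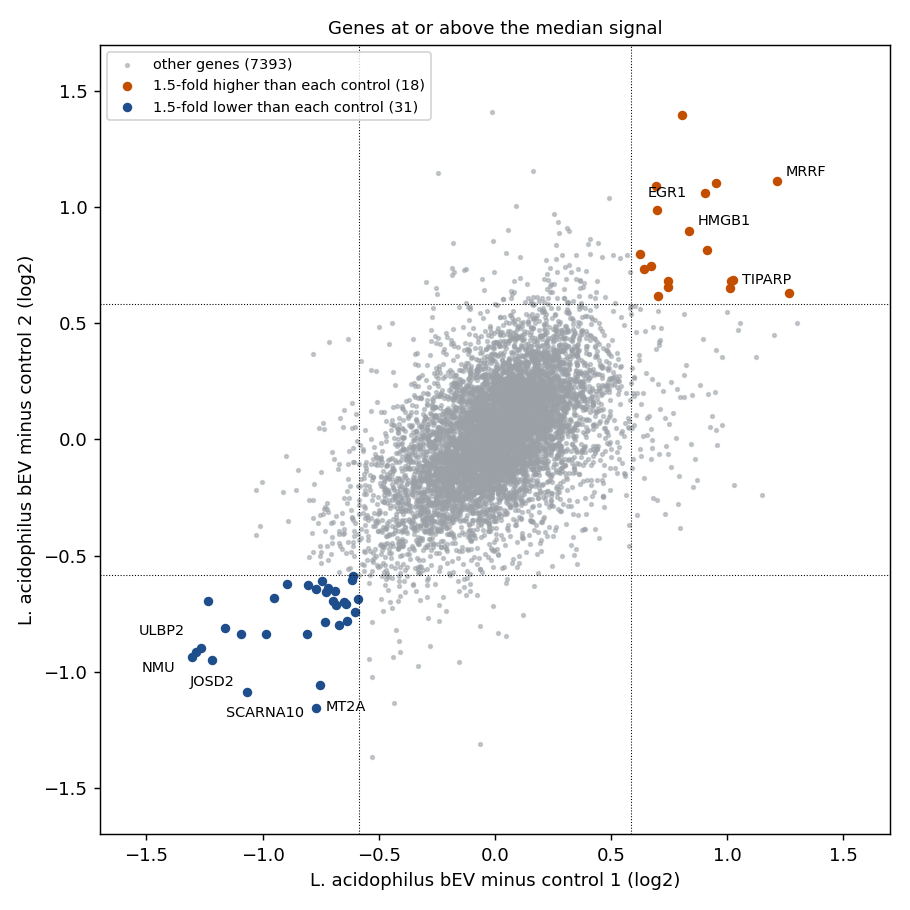
Difference of L. acidophilus bEV from control 1 (horizontal axis) and from control 2 (vertical axis), in log2, for the 7442 brighter genes, those of at least median signal. Orange points (18 genes) were at least 1.5-fold higher than each control, blue points (31 genes) at least 1.5-fold lower, and dotted lines mark 1.5-fold. MRRF lies farthest to the upper right among the labelled genes, and NMU, ULBP2 and JOSD2 to the lower left.

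Of 18 listed HEK293T markers, 10 were measured and 5 of these reached the median signal. KRT18 had a signal of 7.32 with L. acidophilus bEV and 7.59 and 7.65 in the controls, while VIM had 7.68 and 7.93 and 7.81. GATA2, a transcription factor, had 5.40 against 5.22 and 5.04, and LHX1, a transcription factor of the developing kidney, had 5.48 against 5.33 and 5.29. The neural adhesion gene L1CAM, at a low signal, had 2.51 against 3.08 and 3.31. In 3 of these markers, KRT18, VIM and L1CAM, the L. acidophilus bEV array was the lowest of the 10 by the probe set used. On further probe sets of KRT18 and VIM it was not the lowest. There KRT18 had 5.04 against 5.49 and 5.74, with 4.98 to 5.30 in the other bEV arrays. VIM had 7.15 against 7.11 and 7.10 on one, and 7.15 against 7.45 and 7.19 on another. The summed linear signal of the 10 was 570 with L. acidophilus bEV against 641 and 627 in the controls. None of the measured markers of blood and immune cells (6), fibroblasts (4), hepatocytes (7) or keratinocytes (7) reached the median signal. Their summed linear signals were 60.8 against 60.2 and 56.6 for blood cells, 30.0 against 40.8 and 36.7 for fibroblasts, 49.3 against 49.2 and 56.5 for hepatocytes, and 63.5 against 62.2 and 60.2 for keratinocytes. Albumin (ALB) had 2.46 with L. acidophilus bEV and 2.69 and 2.61 in the controls, and CD14 had 2.46 and 2.64 and 2.15, which are signals in the lower part of the array's range. Over all genes, L. acidophilus bEV correlated with the other 9 arrays at 0.990 to 0.991, with no array nearest by a clear margin.

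Among the 18 brighter genes that exceeded each control, MRRF had the largest difference. It encodes the mitochondrial ribosome recycling factor, which splits the ribosome after a protein is finished. Its signal was 6.73 with L. acidophilus bEV, against 5.52 in control 1 and 5.62 in control 2, a difference of 1.16 or 2.24-fold. The controls lay 0.10 apart, and the other 7 bEV arrays ran from 5.46 through a median of 5.74 to 6.04. The L. acidophilus bEV array was therefore the highest of all 10, with a gap of 0.70 to the next. Of the 14 other measured factors of mitochondrial translation, none passed 1.5-fold. The release factor gene MTRF1 had 5.68 against 5.45 and 5.49, and the peptide release gene MRPL58 had 7.04 against 7.46 and 7.32. MRRF is read by 1 named probe set, so no further probe set bears on its value.

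EGR1, an immediate early zinc finger transcription factor, had 6.26 with L. acidophilus bEV, against 5.35 and 5.20 in the controls, a difference of 0.98 or 1.98-fold. The other bEV arrays ran from 4.96 through 5.20 to 5.73, and L. acidophilus bEV was the highest array by 0.52. Its second probe set had a lower signal and the same order, with 3.74 against 3.14 and 3.09 and a range of 2.69 to 3.44 in the other bEV arrays. Both probe sets thus placed L. acidophilus bEV above all 9 other arrays.

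The promoter of EGR1 is shown because it is a known target of the serum response factor, which binds CArG boxes. In the RefSeq window of 300 bases (GRCh38.p14, chr5:138465229-138465528, plus strand, 250 bases before and 50 after the start), the capitals mark the CArG boxes, which are CC and GG around 6 bases that are each A or T.
EGR1 promoter: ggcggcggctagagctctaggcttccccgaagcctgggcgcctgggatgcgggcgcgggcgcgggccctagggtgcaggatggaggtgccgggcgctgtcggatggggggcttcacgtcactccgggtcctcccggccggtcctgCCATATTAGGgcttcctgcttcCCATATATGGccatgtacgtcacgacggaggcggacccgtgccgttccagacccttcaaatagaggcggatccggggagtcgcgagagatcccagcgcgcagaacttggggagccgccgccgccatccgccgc
The boxes begin 105 and 83 bases before the start. Searched on both strands, a CArG box was found in 351 of 27305 promoter windows (1.29%), and 9 windows held 2 or more. Among the immediate early transcription factors with a window, 2 of 17 held one, EGR1 and SRF, and of the ERK feedback genes 0 of 5. Boxes outside the 300 bases were not searched, so a gene without a match, such as FOS, may carry one farther away. The matches are of letters and were not read as bound sites.

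The other immediate early transcription factors were close to the controls. Of 22 measured, 13 lay above the control mean and EGR1 alone passed 1.5-fold, and the median difference was 0.07, beside -0.002 over all genes. FOS had 4.83 with L. acidophilus bEV against 4.74 and 4.12, and FOSB 5.36 against 4.92 and 5.08, and FOSL1 differed from the control mean by 0.29. These 3 encode AP-1 partners of JUN, which had 9.74 against 9.65 and 9.62. L. acidophilus bEV was the highest of the 10 arrays in 6 of the 22 (EGR1, FOS, FOSB, FOSL1, MYC and KLF10), while it was highest in 1309 of all genes (8.79%). Outside EGR1 these leads were small, with gaps to the next array of 0.02 to 0.14. KLF2, an endothelial and lymphocyte transcription factor, went the other way, with 4.70 against 5.12 and 5.40 and the lowest signal of the 10. L. acidophilus bEV was the lowest array in 1336 of all genes (8.98%).

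Genes that the ERK pathway induces as its own brakes or outputs lay mostly above the controls. Of 10 measured, 8 lay above the control mean and 7 above both controls, with a median of 0.34, and ETV5 was the only member past 1.5-fold. Over all genes, 49.6% lay above the control mean, and 5062 of 14884 above both controls. The median was 0.23 against control 1 and 0.57 against control 2. DUSP4, a nuclear phosphatase of ERK, had 3.84 with L. acidophilus bEV against 3.30 and 3.22 in the controls. ETV5 had 3.84 against 3.25 and 3.12 and ETV1 had 4.38 against 4.01 and 3.64, and both are ETS transcription factors. DUSP7, another ERK phosphatase and one of 3 members at or above the median signal, had 6.43 against 6.22 and 5.88. SPRY2 and SPRY4, inhibitors of receptor signalling, lay above both controls and differed from the control mean by 0.29 and 0.41. Their controls lay 0.31 and 0.70 apart, which is more than these differences. The same list had medians of 0.08 to 0.28 with the other bEVs, which share the controls.

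ATF4 targets lay near the controls with L. acidophilus bEV and higher with most other bEVs. Of 31 measured, 16 lay above the control mean, 1 was past 1.5-fold higher (CTH) and 1 lower (GDF15), and the median was 0.01. With the other bEVs the medians were 0.48 for L. rhamnosus, 0.31 for L. plantarum, 0.06 for L. salivarius, 0.29 for S. thermophilus, 0.44 for L. paracasei, 0.29 for L. fermentum and 0.27 for Lc. lactis, all against the same controls. Without the controls, L. acidophilus bEV lay below the mean of the other 7 bEV arrays in 28 of the 31, with a median of -0.31, beside -0.01 over all genes. Against that mean, 150 genes were higher (1.01%) and 156 were lower (1.05%) by 1.5-fold with L. acidophilus bEV.

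CTH, which makes cysteine from cystathionine, had 6.21 with L. acidophilus bEV against 5.63 and 5.49, while the other bEV arrays ran from 5.89 through 6.83 to 7.20. SESN2, a stress sensor that restrains mTORC1, had 7.15 against 6.93 and 6.98, and 7.26 to 8.46 in the other bEV arrays, so L. acidophilus bEV was the lowest bEV array. GPCPD1, a glycerophosphodiesterase, had 6.54 against 5.56 and 6.19, and 6.06 to 7.52 elsewhere. TXNIP, which binds and inhibits thioredoxin, had 5.83 with L. acidophilus bEV against 6.15 and 6.15, and 4.73 through 4.97 to 5.81 with the other bEVs. It was thus lower than both controls and above the other bEVs, though barely above the highest of them, L. salivarius. Its dim second probe set had 2.56 with L. acidophilus bEV against 3.65 and 2.70, and 1.47 to 2.95 with the other bEVs, so there it was not above them all. GDF15, a secreted stress cytokine, had 3.75 against 4.33 and 4.53 and was the lowest of the 10 arrays. Chaperones of the endoplasmic reticulum had a median of -0.04 over 17 measured. Among these DERL3, which takes part in degradation of misfolded proteins, had 5.10 against 5.64 and 6.04, and SDF2L1 had 7.12 against 7.69 and 7.65.

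**Figure D3:**
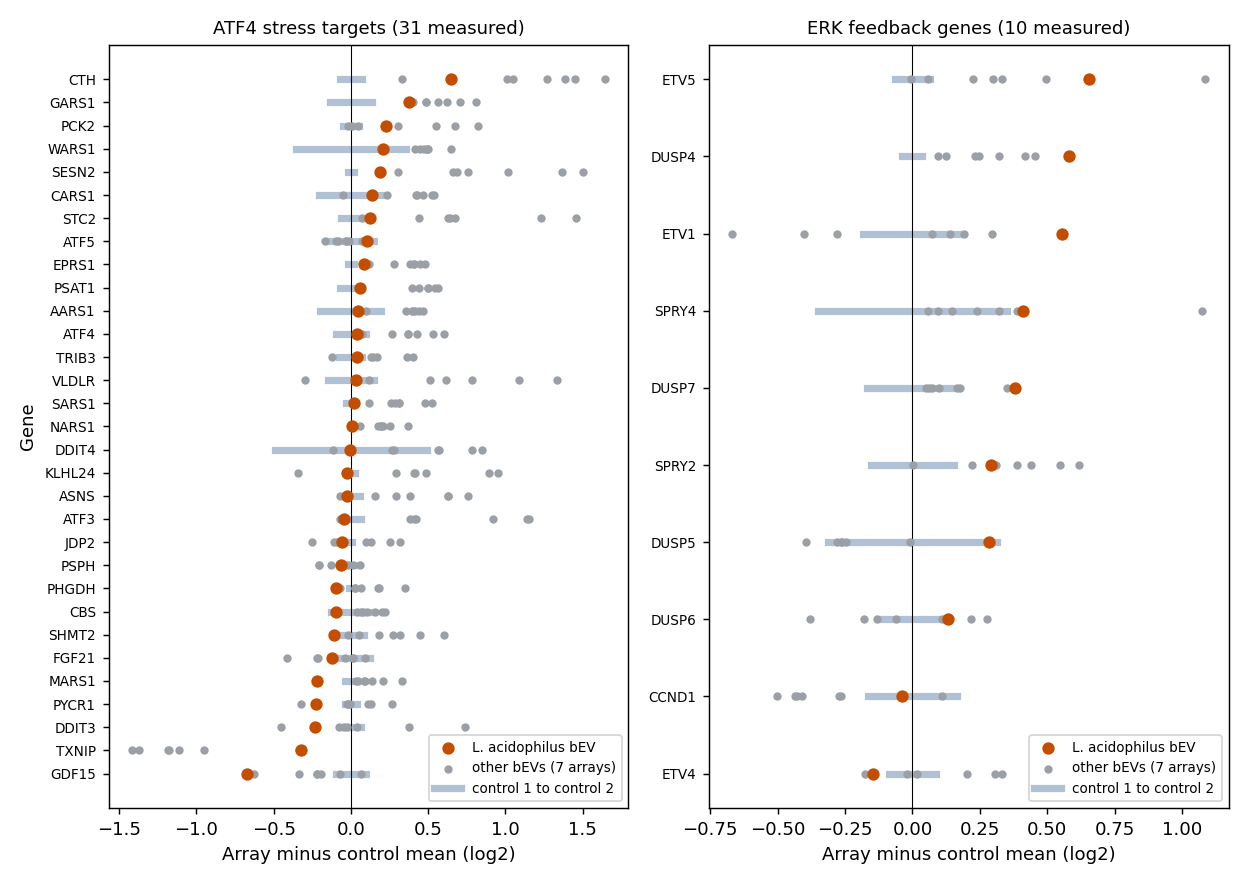
Difference from the control mean (horizontal axis, log2) of each measured ATF4 target (left, 31 genes) and ERK feedback gene (right, 10 genes). Orange points are L. acidophilus bEV, gray points the other 7 bEV arrays, and blue bars have the length of the gap between control 1 and control 2, centered on the control mean. On the left the orange points of most genes lie to the left of the gray ones (28 of 31 lie below their mean), and on the right 8 of 10 lie above 0.

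NMU encodes neuromedin U, a neuropeptide of gut and brain that contracts smooth muscle and restrains feeding. Its signal was 5.42 with L. acidophilus bEV against 6.72 and 6.36 in the controls, a difference of -1.12 or 2.18-fold lower. It was lower than the controls in the other bEV arrays too, with 5.94 through 5.99 to 6.29, and L. acidophilus bEV was the lowest by 0.52. Of 56 measured neuropeptide and peptide hormone genes, 23 lay above the control mean, 0 were past 1.5-fold higher and 3 were lower (NMU, STC1 and NMB). The same shares over all genes were 49.6%, 1.62% and 1.94%. STC1, which encodes stanniocalcin, had 3.09 against 4.18 and 3.40, and its controls lay 0.79 apart, which is more than the difference of -0.71. NMB, neuromedin B, had 5.03 against 5.79 and 5.49. The list had a median of -0.03.

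JOSD2 and ULBP2 were lower with L. acidophilus bEV than on any other array by a wide gap. JOSD2, a deubiquitinating enzyme of the Josephin family, had 4.21 with L. acidophilus bEV against 5.42 and 5.16, and 5.13 through 5.17 to 5.36 in the other 7 bEV arrays. All 9 other arrays lay within 0.29 of each other, and L. acidophilus bEV was 0.93 below the lowest of them. ULBP2 had 4.20 against 5.47 and 5.10, and 4.99 through 5.31 to 5.74, a gap of 0.79. Its neighbor ULBP1 had a low signal on all arrays, with 1.33 for L. acidophilus bEV against 2.40 and 2.96, and 2.96 through 3.34 to 3.99 in the other bEV arrays. The 1.33 lies below the 10th percentile of all signals, and with signals below that floor set to it, the difference of ULBP1 was -0.49 in place of -1.35 and no longer past 1.5-fold.

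ULBP1 and ULBP2 encode stress-induced ligands of NKG2D, the activating receptor of natural killer cells. The other measured NKG2D ligands did not pass 1.5-fold. MICA had 6.48 against 6.94 and 6.70, ULBP3 had 8.55 against 8.92 and 8.59, and MICB had 6.35 against 6.42 and 6.31. At low signals, RAET1E had 2.92 against 3.40 and 2.87, and RAET1L had 2.29 against 2.35 and 1.62. The median over the group was -0.22, with -0.46 against control 1 and -0.03 against control 2. This group of 7 measured genes, and ULBP1 within it, was chosen after its values were seen. Of the 7, 2 were past 1.5-fold lower and 3 were the lowest of the 10 arrays (ULBP1, ULBP2 and MICA). Over all genes, 1.94% were past 1.5-fold lower and 8.98% were lowest on the L. acidophilus bEV array.

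**Figure D4:**
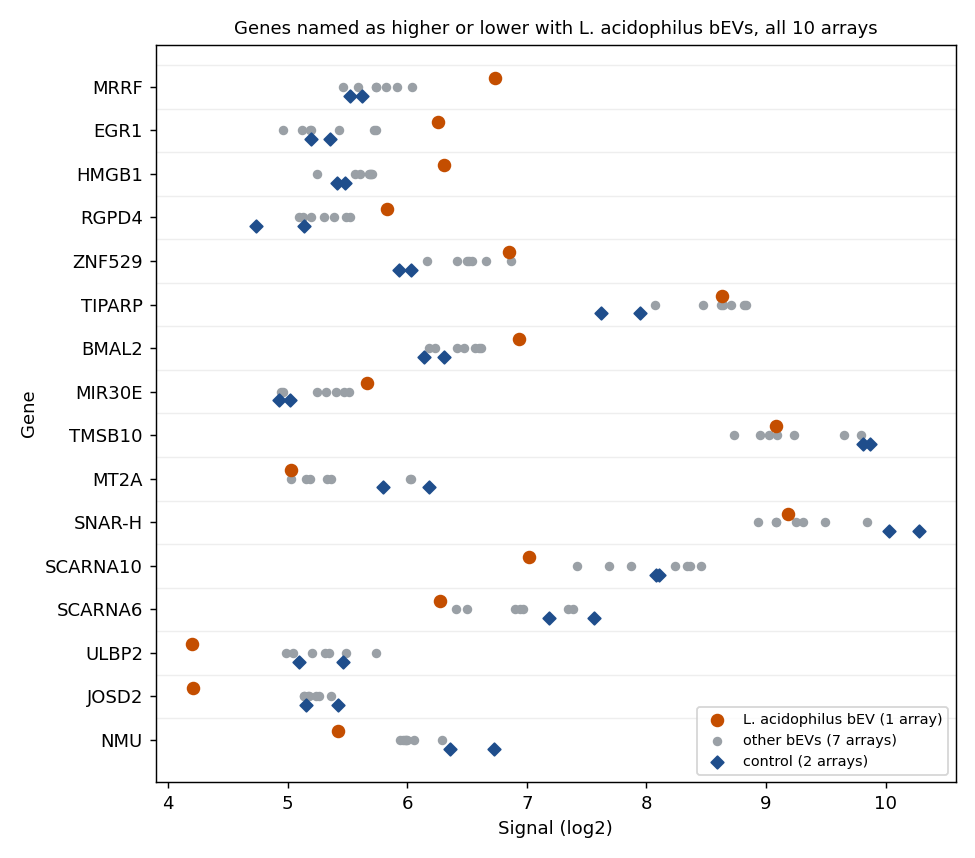
Signal (log2, horizontal axis) of 16 named genes on all 10 arrays. For each gene the orange point is L. acidophilus bEV, gray points are the other 7 bEV arrays and blue diamonds are the 2 controls. The orange point stands clear of all others for MRRF, EGR1, HMGB1, ULBP2 and JOSD2, and lies among the gray points for TIPARP, TMSB10 and SNAR-H.

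HMGB1, a chromatin protein that also acts as an alarm signal outside the cell, had 6.31 with L. acidophilus bEV against 5.48 and 5.41, a difference of 0.87 or 1.82-fold. The other bEV arrays ran from 5.25 through 5.68 to 5.70, and L. acidophilus bEV was highest by 0.61. Of 14 measured high mobility group genes, 9 lay above the control mean, and HMGB1 alone passed 1.5-fold, with a list median of 0.04. Over all genes, 49.6% lay above the control mean and 1.62% were past 1.5-fold higher. HMGN2, a nucleosome binding protein, had 5.52 against 4.57 and 5.32, with its controls 0.75 apart, and HMG20B had 6.52 against 7.05 and 6.86. HMGB1, HMGN2, HNRNPA1 and RPL32 have many processed pseudogenes in the genome, so that their probe sets can read more than 1 locus and their values are uncertain in that sense.

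Splicing factors lay slightly above the controls. Of 44 measured, 33 lay above the control mean and 25 above both controls, with a median of 0.12. Over all genes of at least median signal, 53.5% lay above the control mean and 37.4% above both controls, with a median of 0.02. The other bEVs had medians of -0.09 to 0.08. L. acidophilus bEV was the highest of the 10 arrays in 11 of the 44 and the lowest in 0. HNRNPA1, which binds splice sites and exports mRNA, had 8.65 against 7.53 and 8.30 in the controls, and HNRNPC 7.77 against 7.05 and 7.29, and these 2 were past 1.5-fold. SRSF7 had 8.79 against 8.30 and 8.54, and HNRNPH1 had 7.80 against 7.04 and 7.55. Control 1 was the lower control for these 4 genes, and the median over the list was 0.11 against control 1 and 0.07 against control 2.

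BMAL2, a partner of CLOCK in the circadian clock, had 6.93 with L. acidophilus bEV against 6.31 and 6.14, and 6.18 through 6.48 to 6.62 in the other bEV arrays. The clock repressor PER2 had 6.76 against 6.40 and 6.19, and CLOCK had 7.83 against 7.58 and 7.45. BMAL2 was the only one of 14 measured clock genes past 1.5-fold, and 9 of them lay above the control mean, with a median of 0.10. Over all genes, 49.6% lay above the control mean and 1.62% were past 1.5-fold higher. The other bEVs had medians of -0.0002 to 0.26 for the clock genes. TIPARP, an ADP-ribosyltransferase induced by the aryl hydrocarbon receptor, had 8.63 against 7.62 and 7.95, and 8.07 through 8.64 to 8.83 with the other bEVs, so that L. acidophilus bEV lay within their range.

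Zinc finger genes were among the higher genes. ZNF529 had 6.85 against 5.93 and 6.03, ZNF708 had 5.26 against 4.56 and 4.28, and ZNF382 had 5.81 against 5.06 and 5.15. Of 467 protein-coding ZNF genes measured, 319 lay above the control mean, 21 were past 1.5-fold higher and 8 lower, and the median was 0.10, in a range of 0.05 to 0.13 for the other bEVs. Over all genes these shares were 49.6% above the control mean, 1.62% higher and 1.94% lower. Other genes higher than each control were RGPD4 at 5.83 against 5.13 and 4.74, BEND7 at 5.23 against 4.22 and 4.58, THAP9 at 5.28 against 4.53 and 4.59, and MPPE1 at 5.66 against 4.96 and 5.04. RGPD4 belongs to a family of near-identical copies of RANBP2, so its value is shared with them. ZNRF2P1, a pseudogene, had 5.80 against 4.54 and 5.17, but its second probe set had 4.51 against 5.11 and 4.94, so its direction was not settled.

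Most measured genes of the mitochondrial respiratory chain and of ribosomes lay below the control mean. Of 80 listed genes of oxidative phosphorylation, only 19 were measured. Of these 19, 3 lay above the control mean, beside 49.6% of all genes. The median was -0.32, with -0.33 and -0.32 against each control. COX8A, a small subunit of cytochrome c oxidase, had 9.30 with L. acidophilus bEV against 9.93 and 9.86 and was the only member past 1.5-fold. CYC1, cytochrome c1, had 8.78 against 9.37 and 9.19, and COX4I1 had 9.65 against 10.27 and 9.95. UQCRC2, a core subunit of the same complex as CYC1, had 8.95 against 9.27 and 9.27 and was the lowest of the 10 arrays. The other bEVs had medians of -0.39 to 0.03 for this list.

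Of 76 measured mitochondrial ribosomal proteins, 11 lay above the control mean, with a median of -0.20, and of 51 cytosolic ribosomal proteins, 14 did, with a median of -0.13. The other bEVs had medians of -0.27 to -0.04 for the mitochondrial and -0.26 to -0.02 for the cytosolic list. RPS27 had 10.14 against 10.75 and 10.59. RPL32, at 6.37 against 5.32 and 5.87, was the only member of either list past 1.5-fold. PET100, an assembly factor of cytochrome c oxidase, had 5.16 against 6.05 and 5.78, and CENPX, a small kinetochore protein, had 6.68 against 7.49 and 7.31. Both were at least 1.5-fold lower than each control.

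The median genomic length was 9242 bases for the genes of oxidative phosphorylation, 5057 for cytosolic and 9172 for mitochondrial ribosomal proteins, against 30783 for all protein-coding genes at or above the median signal. The difference from the controls moved with the length of the gene. Among protein-coding genes at or above the median signal, ordered by genomic length in 5 groups of 1387 or 1388 genes, the median difference with L. acidophilus bEV was -0.08, -0.02, 0.03, 0.06 and 0.08 from the shortest group (median 5284 bases) to the longest (median 153477 bases). The shift ran the same way against each control alone. In the same groups, control 1 minus control 2 had medians of 0.02, 0.00, 0.02, 0.04 and 0.04, and the other bEVs had -0.15 to -0.0026 in the shortest and 0.05 to 0.12 in the longest. The part of gene length in the ribosomal and respiratory lists was not tested.

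**Figure D5:**
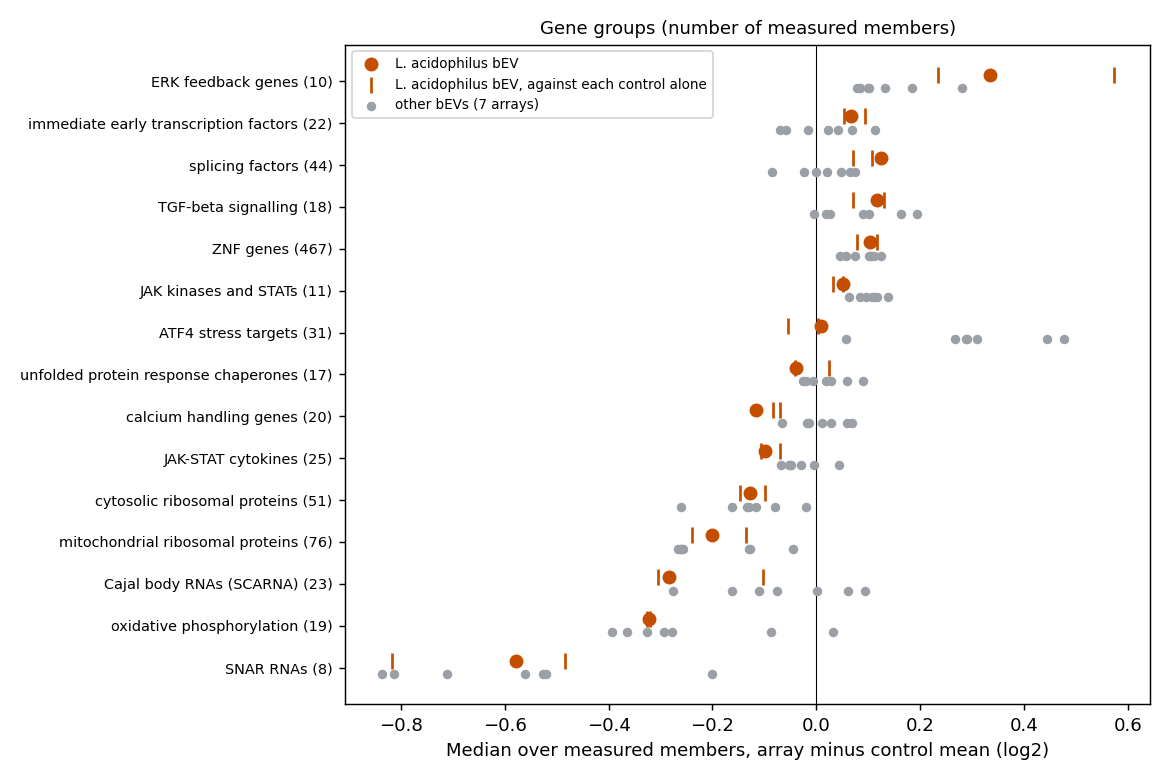
Median difference from the control mean (horizontal axis, log2) over the measured members of 15 gene groups, with the number of members in parentheses. Large orange points are L. acidophilus bEV, orange ticks the same medians against control 1 and control 2 alone (a median of differences need not lie between them), and gray points the other 7 bEV arrays. L. acidophilus bEV has the highest of 8 medians for ERK feedback genes (0.34) and splicing factors (0.12) and the lowest for, among others, ATF4 targets (0.01) and calcium handling genes (-0.12).

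Several small noncoding RNAs were among the lower genes. The extraction column retains short RNAs poorly, and its part in these values was not tested. SCARNA6 had 6.27 with L. acidophilus bEV against 7.56 and 7.19, and SCARNA10 had 7.02 against 8.08 and 8.10. Both guide the modification of spliceosomal RNAs in Cajal bodies. SCARNA10 had 7.42 through 8.24 to 8.46 in the other bEV arrays, all above L. acidophilus bEV. Of 23 measured SCARNA genes, 7 lay above the control mean, 3 were past 1.5-fold lower (with SCARNA3 at 3.11 against 4.20 and 4.17) and 1 higher (SCARNA27 at 6.27 against 5.57 and 5.72). L. acidophilus bEV was the lowest of the 10 arrays in 6 of the 23. Over all genes, 1.94% were past 1.5-fold lower and 1.62% higher, and this array was the lowest in 8.98%.

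The SNAR RNAs, short transcripts of RNA polymerase III that bind NF90, were lower with L. acidophilus bEV in all 8 measured, and lower than both controls in all 8. SNAR-H had 9.19 against 10.28 and 10.02, SNAR-F had 6.45 against 7.68 and 7.14, and SNAR-G2 had 8.56 against 9.55 and 9.40. The median was -0.58, and the other bEVs had medians of -0.84 to -0.20. SNAR genes are near-identical copies, so that the 8 values may in large part read the same RNAs. VTRNA1-3, a vault RNA, had 6.67 against 7.83 and 7.48, while VTRNA1-1, VTRNA1-2 and VTRNA2-1 differed from the control mean by -0.09, 0.25 and -0.13. The SCARNA, SNAR, vault, ZNF, beta thymosin and microRNA groups were formed after their values were seen.

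MT2A, the main metallothionein and a store of zinc and copper, had 5.03 with L. acidophilus bEV against 5.80 and 6.18, a difference of -0.96 or 1.95-fold lower. The other bEV arrays ran from 5.03 through 5.33 to 6.03, so L. acidophilus bEV was at the lower edge of their range. MT1E had 2.96 against 4.24 and 3.74. These were the 2 past 1.5-fold of 11 measured in this list, and both were lower, as were 1.94% of all genes. MT1X, another metallothionein of high similarity, had 6.78 against 6.64 and 6.97, and MTF1, the zinc sensor that turns these genes on, had 8.47 against 8.07 and 8.24. The median of the list was -0.03.

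The MT2A promoter is shown because metallothionein promoters carry repeated metal response elements, the binding sites of MTF1. The RefSeq window is chr16:56608334-56608633 of GRCh38.p14 on the plus strand, and the capitals mark each match to TGCACNC or TGCGCNC on either strand.
MT2A promoter: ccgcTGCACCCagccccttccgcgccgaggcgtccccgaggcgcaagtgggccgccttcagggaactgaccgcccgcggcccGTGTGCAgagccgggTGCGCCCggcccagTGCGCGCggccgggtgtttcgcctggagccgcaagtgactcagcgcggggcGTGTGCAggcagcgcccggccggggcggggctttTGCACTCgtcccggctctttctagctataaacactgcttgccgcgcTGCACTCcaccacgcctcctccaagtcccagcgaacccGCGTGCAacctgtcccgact
The window held 8 matches, 5 on the plus and 3 on the minus strand, none of them overlapping another. At least 1 match was found in 29.3% of 27305 windows, 2 or more in 8.59%, and at least 2 in 5 of the 6 windows of measured genes of the list. The arrays do not show whether any of these was bound.

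The beta thymosins, which hold actin monomers, were lower in all 3 genes measured. TMSB10 had 9.08 against 9.81 and 9.87, and TMSB15A had 5.34 against 5.99 and 6.04, and the other bEV arrays spanned both sides of these values with 8.73 to 9.79 and 4.06 to 5.95. Further genes lower than each control were CCDC28B at 4.58 against 5.33 and 5.64, POGLUT2, an O-glucosyltransferase of the endoplasmic reticulum, at 4.79 against 5.60 and 5.63, EDA2R, a p53-induced receptor of the TNF receptor family, at 5.45 against 6.09 and 6.23, COMMD4 at 5.68 against 6.45 and 6.32, and NOG, a secreted BMP antagonist, at 5.25 against 5.94 and 5.96. The first 3 of these were the lowest of the 10 arrays, and NOG was within the range of the other bEVs.

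The microRNA genes were read by probe sets on the gene or hairpin, not on the mature strand. Of 1072 measured, 69 were past 1.5-fold higher and 74 lower, and 528 lay above the control mean, with a median of -0.004. Over all genes, 1.62% were higher and 1.94% lower, and 49.6% lay above the control mean. Only 153 of the 1072 reached the median signal, and 979 have a mature sequence in the RefSeq table (GRCh38.p14). The mature sequences of those that reached the median signal and differed from each control are printed first for the higher genes, with bases 2 to 8, the seed that pairs with targets, in capitals.
miR-338-3p: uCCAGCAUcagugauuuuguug
miR-338-5p: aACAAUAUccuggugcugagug
miR-3137: uCUGUAGCcugggagcaauggggu
miR-30e-3p: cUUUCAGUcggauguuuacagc
miR-30e-5p: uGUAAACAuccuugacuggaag
miR-4420: gUCACUGAugucuguagcugag
The lower genes have the following mature sequences.
miR-557: gUUUGCACgggugggccuugucu
miR-4746-3p: aGCGGUGCuccugcgggccga
miR-4746-5p: cCGGUCCCaggagaaccugcaga
miR-662: uCCCACGUuguggcccagcag
miR-4689: uUGAGGAGacauggugggggcc
No seed is shared among these genes. MIR4644, which also was higher, is named only.

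MIR3137 had 5.98 with L. acidophilus bEV against 5.03 and 4.88, and 4.65 through 4.96 to 5.71 in the other bEV arrays. MIR338 had 5.44 against 4.64 and 4.05, but its second probe set had 4.01 against 4.29 and 4.18, so the 2 probe sets disagreed. MIR30E, whose mature strands are abundant in many tissues, had 5.66 against 5.02 and 4.93, and was highest of the 10 arrays by 0.15. MIR30A, which shares both seeds with it, had 4.78 against 3.61 and 4.21, and of the 4 measured genes with the seed of miR-30e-5p, 3 lay above the control mean. MIR4420 had 5.76 against 5.09 and 5.02, and MIR4644 had 5.75 against 4.72 and 5.06.

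Among the lower microRNA genes, MIR557 had 5.11 against 6.06 and 5.79, MIR662 had 4.08 against 4.75 and 4.88, MIR4746 had 4.22 against 4.86 and 4.93, and MIR4689 had 3.95 against 4.67 and 4.60. L. acidophilus bEV was the lowest of the 10 arrays in each of these 4, by 0.49 to 0.64.

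Below the median signal, differences were larger and less sure. MIR3135A had 4.61 with L. acidophilus bEV against 2.26 and 3.46, with 3.96 to 5.61 in the other bEV arrays, and its controls lay 1.20 apart. MIR3147 had 2.89 against 4.34 and 4.97, and its second probe set agreed in direction, with 1.98 against 4.53 and 4.81. SP140L had 1.63 against 3.65 and 2.92, PRAMEF2 had 1.98 against 3.38 and 3.52, and LOC653513 had 4.42 against 3.05 and 2.36. In the MIR548 family, a large set of near-identical hairpins derived from a transposon, 5 of 40 measured genes were past 1.5-fold higher and 5 lower. Of all 1072 microRNA genes 69 and 74 were, and of all genes 1.62% and 1.94%. MIR548W had 2.62 against 1.45 and 1.07, and MIR548AK had 3.46 against 2.38 and 2.19.

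These 2 are shown because their mature strands begin with the same letters.
miR-548w: aAAAGUAAcugcgguuuuugccu
miR-548ak: aAAAGUAAcugcgguuuuuga
Of 7 measured genes with this seed, 4 lay above the control mean, 2 were past 1.5-fold higher and 0 lower, and the median was 0.19. With the floor, the difference of MIR548W was 0.43 in place of 1.36 and its call was lost, while MIR548AK kept its call at 1.17. MIR548B, with the same seed, had a difference of -0.56. None of the 40 MIR548 genes reached the median signal.

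Signalling genes of the JAK-STAT pathway, in which cytokine receptors activate STAT transcription factors, were mostly near the controls. STAT5A, at a low signal, had 4.40 with L. acidophilus bEV against 3.61 and 3.27, and 2.85 through 3.36 to 4.04 with the other bEVs, and was the highest of the 10 arrays. It was the only one of 11 JAK kinases, STATs and related factors past 1.5-fold. The median of these 11 was 0.05, the lowest of the 8 bEVs, and the other bEVs had medians of 0.06 to 0.14. Over all genes, 49.6% lay above the control mean, 1.62% were past 1.5-fold higher and 1.94% lower. JAK1 had 7.94 against 7.44 and 7.52, and STAT3 had 7.85 against 7.89 and 7.72. Of 25 measured cytokines of this pathway, 7 lay above the control mean, with a median of -0.10 and 0 past 1.5-fold in either direction, and the 1 of the 25 that reached the median signal differed by 0.11. BCL2L1, a survival gene downstream of STAT5, had 5.86 against 6.25 and 6.42 and was the lowest of the 10. It belongs to a list of 19 measured targets and adaptors of the pathway. Of these, 12 lay above the control mean, 0 were past 1.5-fold and 16 reached the median signal. Over all genes at or above the median signal, 53.5% lay above the control mean. The list had a median of 0.13, and the other bEVs had medians of 0.03 to 0.11.

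Genes of bacterial sensing and inflammation lay near the controls as groups. Of 36 measured receptors and adaptors, 22 lay above the control mean, with a median of 0.06, and PYCARD, the adaptor of inflammasomes, was the only one past 1.5-fold, with 3.44 against 4.08 and 4.27. Of 27 measured NF-kB targets, 1 was past 1.5-fold higher, SELE at 3.09 against 2.78 and 2.17, and NFKB2 had 4.76 against 5.24 and 5.23. CXCL8 had 2.55 against 2.29 and 2.33, and TNF had 2.84 against 2.99 and 3.24, signals near the bottom of the array's range. Of 33 measured interferon-induced genes, 1 was past 1.5-fold lower, IFITM3 at 3.75 against 4.50 and 4.38, with a median of -0.004. Beside these counts, 49.6% of all genes lay above the control mean, 1.62% were past 1.5-fold higher and 1.94% lower.

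The study followed these arrays with measurements of collagen in other cell lines, so genes of that process were also read. Of 18 measured genes of TGF-beta signalling, 13 lay above the control mean, with a median of 0.12 and 0 past 1.5-fold. Over all genes at or above the median signal, which 15 of the 18 reached, 53.5% lay above the control mean. The other bEVs had medians of -0.004 to 0.19 for this list. SMAD3, which carries the TGF-beta signal to collagen genes, had 3.41 against 3.35 and 3.29, and SMAD7, its inhibitor, had 7.05 against 6.59 and 6.92. Of 25 measured genes of collagen processing and matrix turnover, MMP13 alone was past 1.5-fold, with 2.63 against 1.89 and 1.85, and with the floor its difference was 0.43 and the call was lost. MMP1 had 2.56 against 2.01 and 2.31. Both collagenases were at low signals and were the highest of the 10 arrays. LOX, which crosslinks collagen, had 5.25 against 4.88 and 5.11. COL26A1 was the only collagen gene named here, at 4.85 against 4.97 and 5.09.

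The human partners predicted for proteins of L. acidophilus vesicles differed little. Of 12 listed, 9 were measured, 4 lay above the control mean and 0 passed 1.5-fold, with a median of -0.10. None lay above both controls and 5 lay below both. Over all 14884 genes, 49.6% lay above the control mean, 5062 lay above both controls and 5158 below both. Of the 5, STAB1, CD209 and PLG were below the median signal. TXNIP had 5.83 against 6.15 and 6.15, STAB1, a scavenger receptor, 3.08 against 3.37 and 3.38, CD209 3.63 against 3.75 and 4.07, and PLG, plasminogen, 2.27 against 2.31 and 2.68. CHD8 differed from the control mean by 0.04, CANX had 10.52 against 10.55 and 10.36, and MARVELD2 had 5.40 against 5.46 and 5.53. The 6 brighter partners had a median of 0.04 from the control mean, though none of them lay above both controls.

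Calcium handling genes had the lowest median of the 8 bEVs, at -0.12 over 20 measured, with 0 past 1.5-fold. Against control 1 alone the median was -0.08 and against control 2 alone -0.07. ORAI2, a pore subunit of the store-operated channel, had 4.89 against 5.34 and 5.59, and STIM1, its sensor in the endoplasmic reticulum, had 5.58 against 5.72 and 5.93. L. acidophilus bEV was the lowest of the 10 arrays in both, and STIM2 had 7.21 against 7.15 and 6.98. Among p53 targets, TIGAR, a regulator of glycolysis, had 7.20 against 6.84 and 6.79 and was highest by 0.28, while the list of 16 had a median of 0.06 (-0.02 for members at or above the median signal) and 0 past 1.5-fold.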

How the data were processed

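The authors deposited log2 signals per probe set of GeneChip Human Gene 2.0 ST arrays. MAS5 is named in the submitters' processing notes (version not stated), and background correction and normalization have no description in those notes or the methods. Of 53617 probe sets, 16098 have 1 gene symbol in the platform annotation, all matched by Entrez ID, and 37519 are unnamed here. The values were used as deposited, since array medians ran only from 3.29 to 3.33. Differences and counts were computed in Python 3.11.15 with numpy 2.4.6 and pandas 2.3.3. The counting code was run on simulated arrays whose spread was set below that between the controls. This checked the code and not how often these data give false calls. Depth does not apply, and the number of arrays limits the precision. Named genes are the 20 highest and 20 lowest at or above the median signal past 1.5-fold against each control, and 5 and 5 below it. Added are the 8 largest gaps above and below the other 9 arrays. List members past 1.5-fold, or otherwise the 3 largest at or above the median signal, were also taken. The last part holds genes named by the study or by an earlier account of these data, such as MRRF, EGR1, HMGB1 and NMU. That part was not chosen independently of the values. Not all are printed. Outside this rule are FZD9, MIR595, SFN, ULBP1, MIR548AK, MIR30A and some list members, such as FOS, MYC, DUSP4, ETV1 and SESN2, which were picked once values were known. The members and lists were chosen with earlier results of these data known. Left out were each control, and tried were quantile normalization, median centering, the mean of probe sets, a signal filter, a floor (10th percentile), 2-fold and all probe sets.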

Additional observations from a re-analysis of the deposited data

Results flagged for a closer look

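In 3 of the 252 genes past 1.5-fold against each control, L. acidophilus bEV lay on one side of the control mean and all 7 other bEVs on the other side. The difference between bEVs was not tested, and all 8 share the same controls. No like count is given for the other bEVs or over all genes, so the 3 have no background. ULBP1 had a difference of -1.35 with L. acidophilus bEV and 0.28 to 1.30 with the other bEVs, but with signals below the 10th percentile set to that floor its difference was -0.49 (-0.21 against control 1 and -0.77 against control 2), so that it was no longer past 1.5-fold. MIR548AK had 1.17 with L. acidophilus bEV and -0.82 to -0.20 with the others. FZD9, a Wnt receptor, had 0.64 with L. acidophilus bEV and -0.52 to -0.03 with the others. All 3 lay below the median signal.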

How the results depend on the processing

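Against control 1 or control 2 alone, the genes past 1.5-fold with L. acidophilus bEV numbered 367 to 432 higher and 454 to 498 lower, in place of 241 and 289. At 2-fold, 20 were higher and 30 lower than the control mean, and 11 and 14 than each control. At or above the median signal the counts were 48 and 63 against the mean, and 18 and 31 against each control. Over all probe sets they were 2572 and 1967, and 1291 and 961, so that the share of higher calls was 56.7% in place of 45.5%. Quantile normalization, median centering, the mean of probe sets and the floor left each count within 1.5 times. Of 72 named genes past 1.5-fold against the control mean, none changed its sign where control arrays, scaling, probe sets or the floor were changed, but some lost the call. Without control 1, 8 did (COX8A, GPCPD1, HNRNPA1, HNRNPC, NMB, RPL32, STC1 and TMEM14B, at 0.31 to 0.56 in size), and without control 2, 7 did (ANKRD18A, CTH, DERL3, GDF15, L1CAM, SELE and SLIT2-IT1, at 0.31 to 0.58). MIR338 (0.44) and ZNRF2P1 (0.22) lost it with the mean of probe sets, MIR548W (0.43) and MMP13 (0.43) with the floor, COX8A (-0.57) and HNRNPC (0.56) with quantile normalization, and COX8A (-0.58) with centering. Centering moved the median of all genes from -0.002 to 0.02, and 38 of 41 list medians kept their sign under it. With 1 control left out, 36 of 41 did, and with members at or above the median signal, 30 of 37. No paired analysis was possible because the result comes from no test and the labels number the controls but not the bEV arrays.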
